A study of Mus musculus with 10 samples.

Results

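Elastic fibres are the stretchable elements of the lung's airspaces, airways and vessels, and their structural proteins and crosslinking enzymes were followed here in mouse lung squamous cell carcinoma (SCC). The set held 10 genes: elastin (Eln), the microfibril genes Fbn1, Mfap4 and Mfap5, the fibulins Fbln1 and Fbln5, and the lysyl oxidase family genes Lox, Loxl1, Loxl2 and Loxl4. The rule that lists them goes by known function and uses no measured value, although the set was proposed with earlier results of these data known. They are 10 of the 19092 genes that had a probe on the array. Each gene was read from the probe with the highest mean over all 10 arrays among the probes annotated to it. All 10 genes could be tested.

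The control group was 5 lungs of wild type (WT) mice, which carried the floxed Lkb1 allele (Lkb1f/f) with no Cre. The other group was 5 SCC of CCSPiCreLkb1f/f mice, so both groups carried floxed Lkb1 and the Cre was in the tumour-bearing mice alone. All mice were 13 months old and none had been treated. Their strain is B6.129 in the labels, and in the methods it is written as a mixed background of the same strains. CCSPiCre is a Cre recombinase under the promoter of the club cell secretory protein, which the paper used to delete Lkb1 in airway epithelium. Fibroblasts, smooth muscle and other stromal cells are known to make most elastic fibre proteins. The cells in which Lkb1 was lost were not measured here. RNA came from the whole lung in WT and from whole tumour in SCC, and each sample was hybridised to 1 single-colour Agilent array. The labels do not say whether every sample came from its own mouse, so p-values measure the spread between these samples.

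In elastic fibre assembly, soluble tropoelastin, the product of Eln, is deposited onto a scaffold of microfibrils whose backbone is fibrillin. Fibulins and microfibril-associated proteins link the elastin to that scaffold, and lysyl oxidases then oxidise lysine residues so that neighbouring chains become covalently crosslinked. In lung, most elastin is laid down while alveoli form and it turns over very slowly afterwards, so a transcript level in an adult lung is a measure of current expression and not of the amount of fibre present.

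Levels below are log2 processed signal after quantile normalization, a difference is SCC minus WT on that scale, and p-values were adjusted over all probes tested. A gene was called higher or lower where the adjusted p was below 0.05 and the difference was at least 2-fold. Eln was called higher in SCC, Fbln5 and Mfap4 were called lower, and 6 of the 10 genes were not called. Loxl4 also met the thresholds for a higher call, but it entered the test only through the tumours, since its probe was well above background on 1 of 5 WT arrays. Among all 15582 genes tested, 11.6% were called higher and 13.4% lower, against 2 of 10 members in each direction with Loxl4 counted. Among the 14594 genes well above background on at least 4 of 5 arrays in both groups, 10% were called higher and 12.6% lower, against 1 and 2 of the 9 members that remain without Loxl4. The members' shares lay within 1 gene of these backgrounds. An adjusted p below 0.05 was reached by 5 of the 10 members against 53.9% of all genes. The 2 groups did not overlap for 3 of the 10 members, Eln, Fbln5 and Mfap4, against 41.2% of all genes. The members' median difference was 0.12 and that of all genes was -0.04. The members' differences ran from -2.09 to 1.52, while 5% of all genes lay below -1.94 and 5% above 2.12.

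**Figure D1:**
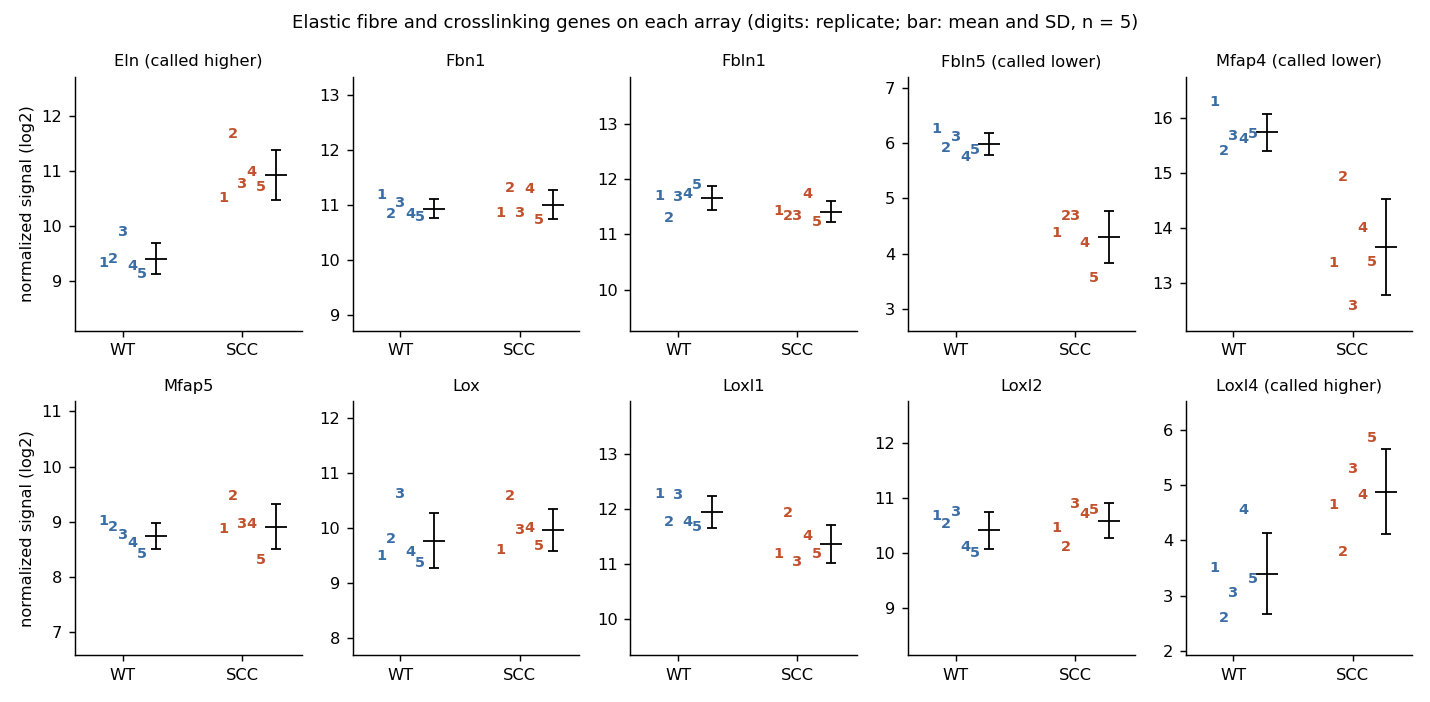
Log2 quantile-normalized signal (y axis) of each of the 10 genes in every array, with WT and SCC side by side, points for single arrays and a bar for each group mean ± SD (n = 5). The SCC values of Eln all lie above the WT values, those of Fbln5 and Mfap4 all lie below, and the groups of the other 7 genes overlap.

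SCC 2 and SCC 5 stood apart from the other tumours in other measures of these arrays. SCC 2 had the lowest mean level of squamous epithelium markers of the 5 SCC, at 11.91 against 14.48 to 14.84. SCC 5 had 90.2% of its probes well above background, against 71.0% to 74.4% on the other 9 arrays. Each of the 4 calls among the members held with SCC 2, SCC 5 or both left out.

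Eln, the gene of the elastic core protein itself, rose in SCC. The log2 level of Eln was 9.34, 9.41, 9.89, 9.28 and 9.13 in WT replicates 1 to 5. In SCC replicates 1 to 5 it was 10.50, 11.67, 10.76, 10.98 and 10.71. Every tumour lay above every WT lung, and SCC 2 was the highest of the 10 samples. The group means were 9.41 ± 0.29 and 10.92 ± 0.45 (SD, n = 5), a difference of 1.52 (SE 0.23), or 2.86-fold higher in SCC with a 95% confidence interval of 2.02- to 4.06-fold. The adjusted p was 0.000466 in limma, and an exact permutation test (two-sided, every regrouping of 5 against 5 arrays) gave p = 0.00794, the smallest it allows. The arrays lay on 3 slides, and only slide 2 held both groups, WT 5 with SCC 1 to 3. Within that slide the difference was 1.85 (adjusted p = 0.223, with 1 WT array), and with slide as a fixed block the adjusted p was 0.0341. Because slide 1 held WT alone and slide 3 SCC alone, the fixed-block difference of every gene is that same contrast, with WT 5 as its only WT array and the spread taken from all slides.

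Fbn1 encodes fibrillin-1, the backbone protein of the microfibril. Its level was 11.18, 10.84, 11.04, 10.83 and 10.78 in WT and 10.86, 11.31, 10.86, 11.28 and 10.73 in SCC. The groups overlapped, with 2 tumours above all WT lungs and 1 below. The difference of 0.07 had a 95% confidence interval from -0.25 to 0.39 (adjusted p = 0.689, exact permutation p = 0.611), which leaves room for folds of up to 1.31 in the upward direction. A second Fbn1 probe gave 0.03 (adjusted p = 0.883).

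Mfap4 encodes a microfibril-associated glycoprotein that binds elastin and fibrillin and is plentiful around lung vessels and airways. It fell in SCC. Its level was 16.30, 15.40, 15.68, 15.62 and 15.71 in WT and 13.38, 14.93, 12.59, 13.998 and 13.38 in SCC. All tumours lay below all WT lungs, SCC 2 came nearest to them, and the SCC values spread over more than the WT values (SD 0.87 against 0.33, n = 5). The difference was -2.09 (SE 0.38), or 4.26-fold lower, with a 95% confidence interval from -2.95 to -1.23 (adjusted p = 0.00158, exact permutation p = 0.00794). Within slide 2, and so with slide as a fixed block, the difference was almost the same, -2.08, while the adjusted p rose to 0.344 and 0.12.

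Mfap5, a small glycoprotein of the fibrillin microfibril, was 9.01, 8.90, 8.76, 8.61 and 8.41 in WT and 8.88, 9.46, 8.96, 8.95 and 8.30 in SCC. The highest and the lowest of the 10 values were both tumours, SCC 2 and SCC 5. The difference of 0.17 (95% confidence interval -0.28 to 0.62) did not pass the test (adjusted p = 0.508, exact permutation p = 0.46).

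Fbln1 encodes a fibulin of basement membranes and elastic fibres. It had levels of 11.70, 11.30, 11.67, 11.73 and 11.89 in WT and 11.43, 11.33, 11.34, 11.73 and 11.22 in SCC. SCC 4 reached the level of most WT lungs and WT 2 that of most tumours, so the groups overlapped. The difference was -0.25 (95% confidence interval -0.55 to 0.05, adjusted p = 0.149, exact permutation p = 0.135), and a second probe gave -0.21 (adjusted p = 0.228).

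Fbln5 encodes fibulin-5, which binds tropoelastin and lysyl oxidases and is required for elastic fibre assembly in mouse lung, skin and aorta. Fbln5 fell in SCC. Its level was 6.25, 5.92, 6.12, 5.76 and 5.87 in WT and 4.37, 4.69, 4.69, 4.19 and 3.55 in SCC, with no overlap and SCC 5 the lowest. The difference was -1.69 (SE 0.22), or 3.22-fold lower, with a 95% confidence interval from -2.17 to -1.21 (adjusted p = 0.000189, exact permutation p = 0.00794). Fbln5 was read from a single dim probe, which was well above background on all 5 WT arrays and on 4 of 5 SCC arrays, and another background correction (normexp) reduced the difference to -0.46 (adjusted p = 0.000273), below 2-fold. Within slide 2 the difference was -1.29 (adjusted p = 0.19).

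RefSeq promoter windows (assembly GRCm38.p6, 300 bases each, from 250 before to 50 after a transcript start) were kept for 4 of the 10 members, Fbn1, Fbln1, Fbln5 and Loxl4. A chromosome was left out of this search, so a member not named here may still have a window in RefSeq. Those of Fbln5 and Loxl4 are shown because these were the 2 called members among them, 1 called in each direction. They are written 5′ to 3′ on the gene's strand in lower case. Capitals mark matches on either strand to the GC box (GGGCGG) or the CCAAT box (CCAAT), none of which overlap each other.
Fbln5, first start, chr12:101819070-101819369, minus strand: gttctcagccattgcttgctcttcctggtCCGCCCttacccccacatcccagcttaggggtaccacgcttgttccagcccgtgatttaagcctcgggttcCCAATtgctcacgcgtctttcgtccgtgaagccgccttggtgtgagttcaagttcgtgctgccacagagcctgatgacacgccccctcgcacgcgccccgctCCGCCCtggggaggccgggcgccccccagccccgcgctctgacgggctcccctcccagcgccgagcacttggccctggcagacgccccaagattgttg
Fbln5, second start, chr12:101818435-101818734, minus strand: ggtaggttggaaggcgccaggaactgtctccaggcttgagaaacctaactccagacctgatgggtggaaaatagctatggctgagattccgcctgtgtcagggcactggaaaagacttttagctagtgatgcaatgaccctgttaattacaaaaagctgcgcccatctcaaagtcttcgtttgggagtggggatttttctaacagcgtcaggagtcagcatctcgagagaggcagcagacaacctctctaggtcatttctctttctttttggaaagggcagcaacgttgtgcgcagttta
Loxl4, chr19:42612757-42613056, minus strand: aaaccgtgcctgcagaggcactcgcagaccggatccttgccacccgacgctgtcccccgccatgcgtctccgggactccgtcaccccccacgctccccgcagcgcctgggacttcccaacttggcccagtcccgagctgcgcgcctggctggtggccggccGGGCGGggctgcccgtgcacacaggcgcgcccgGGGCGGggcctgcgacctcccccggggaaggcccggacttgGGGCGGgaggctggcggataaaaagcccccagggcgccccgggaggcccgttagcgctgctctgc
The first Fbln5 window had 65.7% GC, 24 CpG dinucleotides, 2 GC boxes and 1 CCAAT box. The second Fbln5 window, which lies downstream of it, had 48.7% GC, 8 CpG dinucleotides and no match. The Loxl4 window had 75% GC, 32 CpG dinucleotides and 3 GC boxes. Over the 32807 mouse windows in the same table the medians were 52.7% GC and 7 CpG dinucleotides, and 35.6% held a GC box and 37.4% a CCAAT box. None of the 3 windows shown held TATAAA (13.6% of all windows), TGACTCA or TGAGTCA (5.21%) or ACGTG (19.6%) on either strand. These matches are a description of the sequence and no measure of factor binding.

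Of the crosslinking enzymes, Lox encodes lysyl oxidase, the copper-dependent amine oxidase that acts on elastin and fibrillar collagens. Its level was 9.495, 9.81, 10.63, 9.58 and 9.37 in WT and 9.60, 10.59, 9.96, 10.004 and 9.68 in SCC. A WT lung, WT 3, was the highest of all 10 samples, with SCC 2 just below it. The difference of 0.19 (95% confidence interval -0.40 to 0.78) did not pass the test (adjusted p = 0.57, exact permutation p = 0.5), and it turned to -0.11 with array quality weights (adjusted p = 0.747).

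Loxl1 encodes the family member that fibulin-5 tethers to elastic fibres. Its level was 12.26, 11.76, 12.26, 11.76 and 11.68 in WT and 11.18, 11.92, 11.04, 11.50 and 11.18 in SCC. In 4 of 5 tumours it lay below every WT lung, and SCC 2 lay among the WT values. The difference of -0.58 (SE 0.20, 95% confidence interval -1.02 to -0.14), or 1.495-fold lower, had an adjusted p of 0.0331 (exact permutation p = 0.0317) and did not reach 2-fold. The adjusted p rose to between 0.0563 and 0.0804 when any one of WT 1, WT 3, SCC 1, SCC 3 or SCC 5 was left out, and to 0.644 with slide as a fixed block, where the difference was -0.30.

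Loxl2, which crosslinks basement membrane collagen IV, was 10.66, 10.53, 10.75, 10.11 and 10.01 in WT and 10.44, 10.11, 10.89, 10.71 and 10.78 in SCC. The groups overlapped. The difference was 0.18 (95% confidence interval -0.26 to 0.61, adjusted p = 0.476, exact permutation p = 0.389). A second probe of Loxl2 had the opposite sign, -0.31 (adjusted p = 0.273), so no direction can be given for this gene.

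Loxl4, a further member of the family that acts on collagens, was near background. Its level was 3.49, 2.59, 3.06, 4.56 and 3.31 in WT and 4.65, 3.80, 5.30, 4.83 and 5.86 in SCC. WT 4 overlapped the tumour range, and SCC 2 was the lowest tumour. The probe was well above background on WT 4 alone of the 5 WT arrays and on 4 of 5 SCC arrays, all but SCC 2. The difference in signal was 1.49 (SE 0.43, adjusted p = 0.0176, exact permutation p = 0.0159), and it is no measured fold change, because the WT level was background on 4 of 5 arrays and the tumours, the group where it was high, brought the probe into the test. Under the normexp correction the difference was 0.35 (adjusted p = 0.0404), below 2-fold, and a second probe, above background on 0 WT arrays and 1 SCC array, was left out by the filter and gave 1.17 in the fit without a filter (adjusted p = 0.0713), where it was not called. Within slide 2 it was 1.27 (adjusted p = 0.367), and with slide as a fixed block the call was lost (adjusted p = 0.333).

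**Figure D2:**
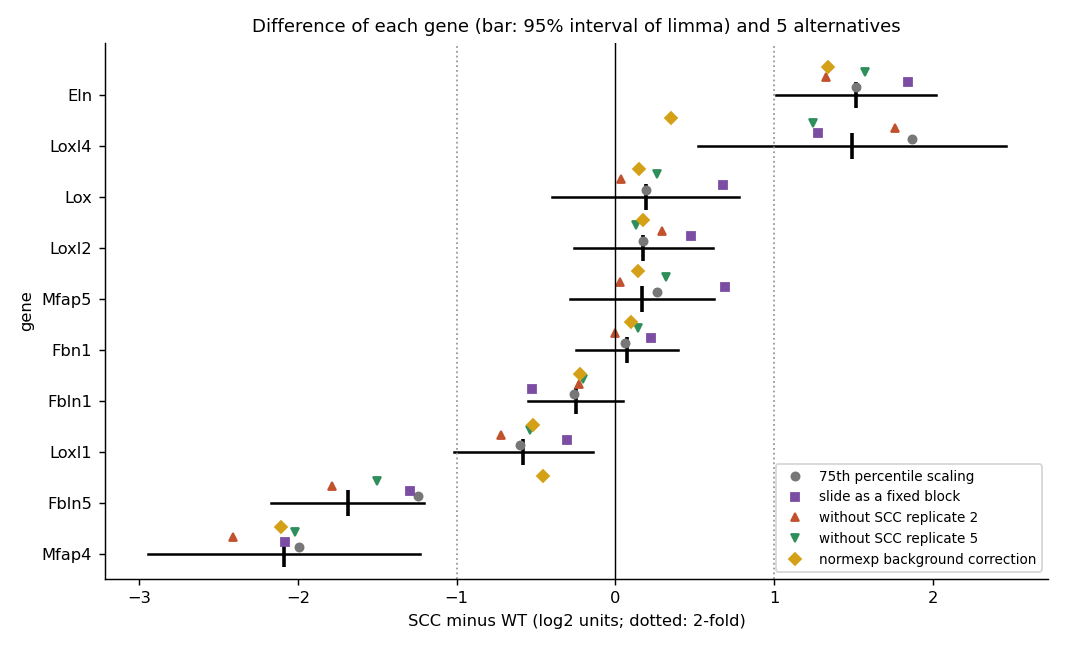
Difference SCC minus WT in log2 signal (x axis) of the 10 genes with 95% confidence intervals from limma (n = 5 per group). The intervals of Eln, Loxl4, Fbln5, Mfap4 and Loxl1 exclude 0, that of Loxl4 being set against a WT signal at background on 4 of 5 arrays, and the Loxl1 estimate of -0.58 lies inside the 2-fold lines.

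Set side by side, the members did not move as a block: elastin and fibrillin-1, the 2 main structural components, were called higher (Eln) and not called (Fbn1), while 2 of the genes that link elastin to its scaffold, Fbln5 and Mfap4, were called lower. Of the 4 lysyl oxidase genes, Lox, Loxl1 and Loxl2 were not called, and Loxl4 met the thresholds only at the low signal described above, with the call lost under normexp and with slide as a fixed block. Across the tumours, SCC 2 had the highest value of the 5 SCC for 6 members, Eln, Fbn1, Mfap4, Mfap5, Lox and Loxl1. SCC 5 had the lowest for 4, Fbn1, Fbln1, Fbln5 and Mfap5. Among the WT lungs, WT 1 was the highest for 5 members and WT 5 the lowest for 6. WT 5 was also the only WT lung on slide 2, and the part of slide in these members' values was not tested apart from the blocked and within-slide values given above.

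Other genes of elastic fibre assembly, a list of 25 outside the members, were mostly lower in SCC where they changed. All 25 were tested. Of these, 1 was called higher (4%, against 11.6% of all genes) and 11 lower (44%, against 13.4%), and 13 were not called. The list's median difference was -0.78, against -0.04 for all genes. With slide as a fixed block 5 of the 25 were called lower. That fit called 2988 of 30374 probes in either direction, against 6954 in the main fit. The same background applies to the slide-block counts of the lists below. The list was chosen with earlier results of these data known.

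The largest fall in that list was of Tnxb, tenascin-X, an extracellular glycoprotein of collagen and elastic networks, with WT values of 11.76 to 12.05 and SCC values of 7.04 to 9.66 (11.3-fold lower, adjusted p = 7.99e-05). Ltbp4, the latent TGF-beta binding protein that works with fibulin-5 in elastin deposition, fell from 15.65 to 16.12 in WT to 13.16 to 14.59 in SCC (4.65-fold lower, adjusted p = 7.35e-05). Mfap2, which encodes the microfibril glycoprotein most closely related to Mfap5, fell from 12.54 to 12.94 in WT to 10.04 to 10.91 in SCC (4.49-fold lower, adjusted p = 1.26e-05). None of these 3 genes had any overlap between groups. Hmcn1, a large fibulin-related protein, was 4.24-fold lower (adjusted p = 4.45e-05). Efemp1, or fibulin-3, was 4.23-fold lower (adjusted p = 0.00083), and Ltbp1, a TGF-beta binding protein of microfibrils, was 2.08-fold lower (adjusted p = 0.000477).

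In the other direction, Fbln7, a short fibulin, rose 2.12-fold (adjusted p = 0.00353). Ltbp2, which binds fibrillin-1 and fibulin-5, had WT values of 13.04 to 13.66 and SCC values of 13.90 to 14.28, which did not overlap, and its 1.88-fold difference passed the adjusted p (0.000715) and not the 2-fold requirement. Efemp2, or fibulin-4, which is essential for elastic fibres and binds lysyl oxidase, differed by -0.30 (adjusted p = 0.0607). Fbln2 (0.07), Emilin1 (-0.10) and Ltbp3 (0.16) did not pass the test either. Fbn2, fibrillin-2, best known from developing tissues, differed by -0.93 (adjusted p = 0.265) and was well above background on 4 WT arrays and 1 SCC array.

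Crosslinking and collagen-modifying genes outside the members, a list of 23, gave 21 tested genes. Of these, 1 was called higher (4.76%, against 11.6% of all genes) and 5 lower (23.8%, against 13.4%), with a median difference of -0.13. Pcolce2, an enhancer of procollagen C-proteinase, fell from 15.18 to 15.38 in WT to 9.23 to 13.42 in SCC, 17.1-fold lower (adjusted p = 0.000458). Colgalt2, a collagen galactosyltransferase, was 8.17-fold lower (adjusted p = 6.44e-05). Plod2, the lysyl hydroxylase that acts on collagen telopeptides and so sets the kind of crosslink formed, fell 5.19-fold (adjusted p = 0.000109), from 10.37 to 10.95 in WT to 7.31 to 9.07 in SCC. Postn, periostin, a matricellular protein that promotes lysyl oxidase activation, was 2.57-fold lower (adjusted p = 1.81e-05).

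P4ha3, a prolyl hydroxylase subunit, was the gene called higher, and it entered the test only through the tumours. It was not well above background on any WT array and its groups overlapped, so that its rise can be given only as at least 1.04-fold (adjusted p = 0.00267 in the fit). Bmp1, the procollagen C-proteinase that also activates the lysyl oxidase proenzyme, differed by 0.00 (adjusted p = 0.984, 0.815- to 1.23-fold by its 95% confidence interval). Loxl3, the remaining gene of the lysyl oxidase family, differed by -0.37 (adjusted p = 0.22). With slide as a fixed block, 3 genes of the list were called lower and 0 higher.

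**Figure D3:**
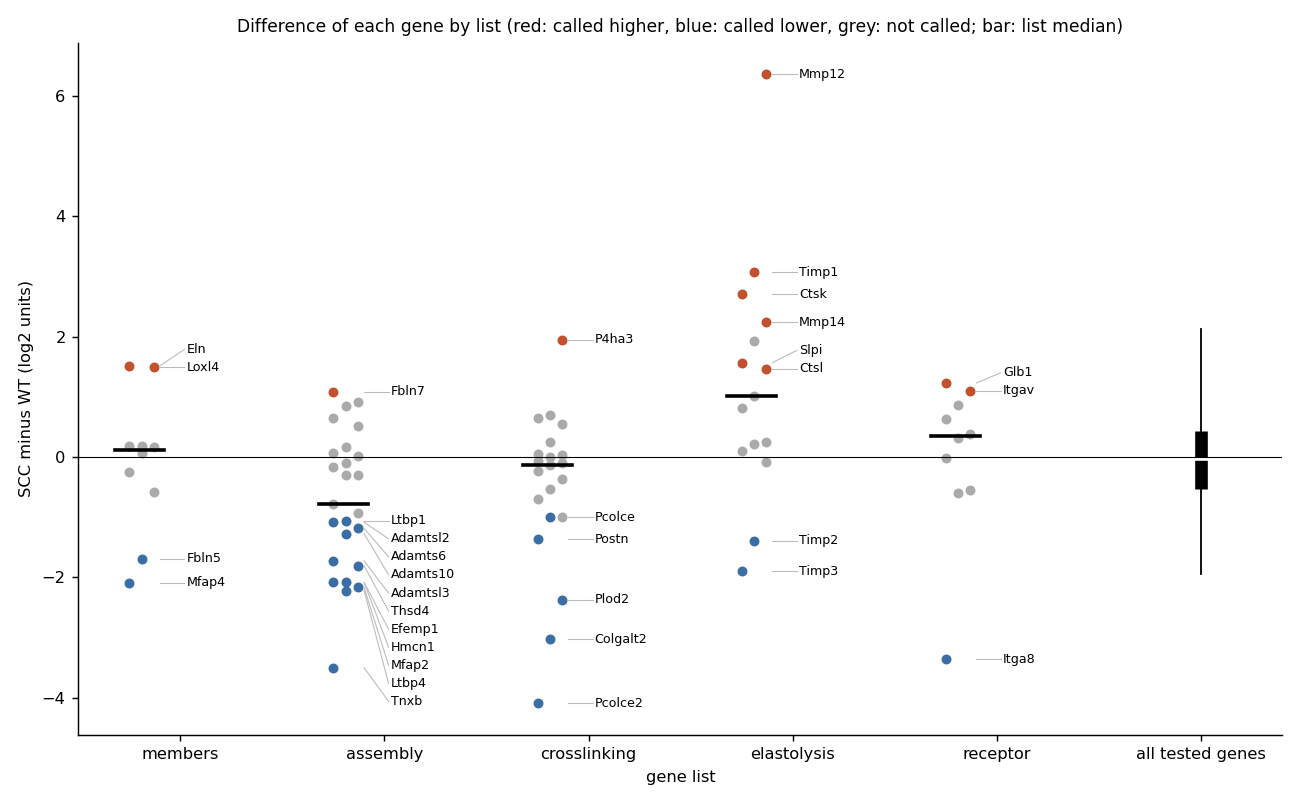
Difference SCC minus WT in log2 signal (y axis) of every tested gene in the members and in 4 lists of related genes, with the median of each list and the 5th and 95th percentiles of all 15582 genes. The assembly list has its median at -0.78 and the elastolysis list at 1.01, while the member median is 0.12.

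Elastin-degrading proteases and their inhibitors, a list of 16, were more often called higher than lower. Of 15 tested, 6 were called higher (40%, against 11.6% of all genes) and 2 lower (13.3%, against 13.4%), and the median difference was 1.01. Mmp12, the macrophage metalloelastase, had WT values of 5.53 to 6.16, and in SCC 1 to 5 it was 12.91, 7.33, 13.68, 13.50 and 13.23. SCC 2 was far below the other tumours and still above the WT range. The mean difference of Mmp12 was 6.36, or 82.1-fold, with a 95% confidence interval of 15.0- to 449-fold (adjusted p = 0.00111). Ctsk, cathepsin K, a cysteine protease that cleaves elastin and collagen, was 6.53-fold higher (adjusted p = 0.00275), again with SCC 2 the lowest tumour at 11.88 against 14.53 to 15.00. Mmp14, the membrane-type collagenase, rose 4.73-fold (adjusted p = 1.23e-05). Of the neutrophil proteases, Prtn3 (0.21, adjusted p = 0.496) and Ctsg (0.11, adjusted p = 0.663) were not called, and Elane was not tested.

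Inhibitors moved in both directions. The inhibitors Timp1 and Slpi are among the 6 genes of the list called higher, so that count is not of proteases alone. Slpi was 2.96-fold higher (adjusted p = 0.000288). Timp1 was 8.38-fold higher (adjusted p = 3.96e-05), whereas Timp3, the matrix-bound inhibitor of the family, fell 3.72-fold (adjusted p = 0.000371) and Timp2 fell 2.62-fold (adjusted p = 4.62e-05). With SCC 2 and SCC 5 left out, 8 genes of the list were called higher and 2 lower. With slide as a fixed block it was 3 and 1.

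Receptors and chaperones of elastin and microfibrils, a list of 11, gave 10 tested genes, with 2 called higher (20%), 1 lower (10%) and a median difference of 0.35. Both counts lie within 1 gene of the shares of all genes, 11.6% and 13.4%. Glb1, the gene whose splice variant is the elastin binding protein that chaperones tropoelastin, rose 2.34-fold (adjusted p = 1.86e-05), from 10.38 to 10.63 in WT to 11.54 to 11.998 in SCC. Itgav, the integrin alpha-V chain that binds fibrillin-1 and other ligands, rose 2.14-fold (adjusted p = 0.00131). Itga8, an integrin chain of alveolar fibroblasts and smooth muscle, fell 10.3-fold (adjusted p = 0.000179), from 14.94 to 15.21 in WT to 10.67 to 13.39 in SCC.

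Markers of several cell types also differed between the groups. In bulk RNA, fewer cells of a type and less RNA per cell cannot be told apart. The squamous markers Krt5, Krt14, Trp63 and Dsg3 were all called higher, and their mean level was 4.78 to 5.18 in WT and 11.91 to 14.84 in SCC. Dsg3 was well above background on 0 of 5 WT arrays and entered the test only through the tumours, while Krt5, Krt14 and Trp63 were measured on all 10 arrays and match the tissue labels. Of 7 fibroblast markers, 4 were called lower and 0 higher, and the list's mean level was 13.43 to 13.62 in WT and 11.99 to 13.14 in SCC. The 7 did not move together: Tcf21 (-3.34), Pdgfra (-2.10), Dcn (-1.34) and Lum (-1.32) were called lower, and the collagen genes Col1a1 (0.66) and Col3a1 (0.53) passed the adjusted p (0.00581 and 0.0062) without reaching 2-fold. Of 6 smooth muscle markers, 3 were called lower, with mean levels of 11.80 to 12.26 in WT and 11.07 to 11.81 in SCC, and Acta2 differed by 0.40 (adjusted p = 0.0629).

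All 4 endothelial markers were called lower (13.19 to 13.38 in WT, 10.52 to 11.82 in SCC), as were all 4 mesothelial markers (10.42 to 10.96 against 4.61 to 6.73). Mesothelial Wt1 was well above background on 1 of 5 tumour arrays. The adventitial fibroblast list had 1 of 3 called lower and 0 higher (12.62 to 12.84 against 11.43 to 11.81). Activated fibroblast markers split, with Tnc called higher (2.69) and Postn lower, at 9.32 to 10.09 in WT and 9.79 to 10.61 in SCC. Pericyte markers were at 11.23 to 11.64 against 11.50 to 11.85 and did not move together, with a median difference of -0.37. Of the 4, Rgs5 was called higher (2.33), Pdgfrb (-0.83, adjusted p = 0.000609) and Notch3 (-0.60, adjusted p = 0.000414) passed the adjusted p in the other direction without reaching 2-fold, and Cspg4 differed by -0.14. Cartilage markers, which can enter a sample with airway wall, were at 6.41 to 6.93 against 6.91 to 8.32. None of the 3 tested was called, but all 3 differences were positive, and Col2a1 (0.89, adjusted p = 0.000217) passed the adjusted p with no overlap between groups. The part of these cell types in the members' differences was not tested.

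**Figure D4:**
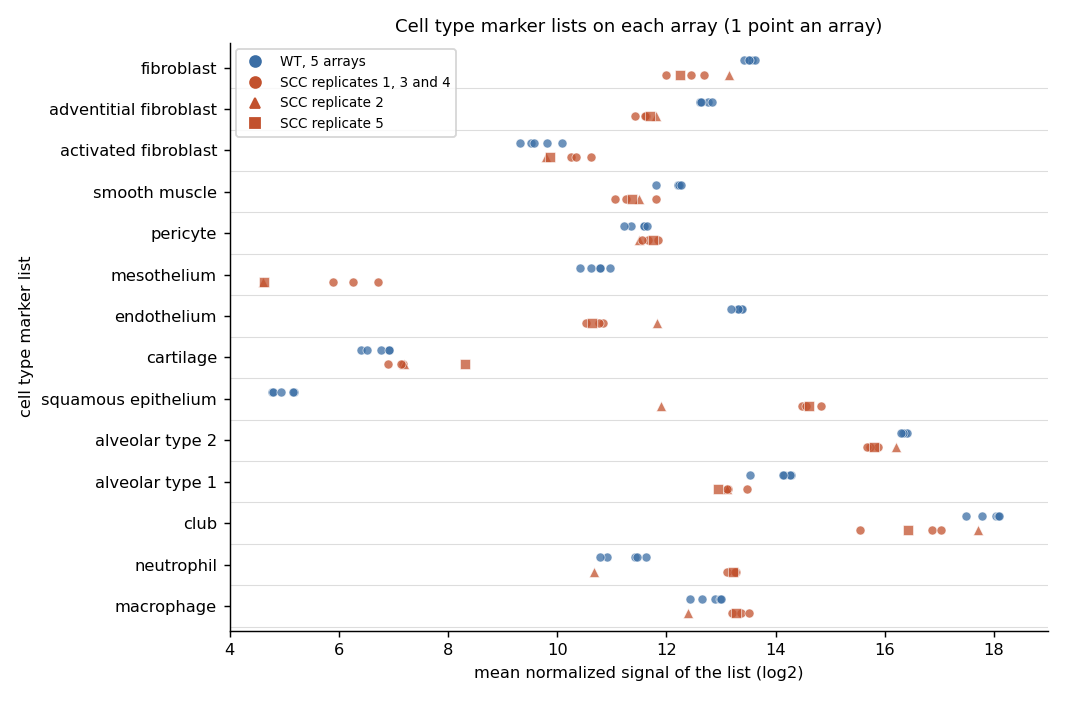
Mean log2 signal (x axis) of each cell type marker list in every array, WT and SCC as separate points. The mesothelium, endothelium, fibroblast, adventitial fibroblast and alveolar type 2 lists lie lower in every SCC array than in every WT array. So does the alveolar type 1 list, whose WT 1 point lacks Aqp5. The squamous epithelium list lies higher.

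Epithelial and leukocyte lists differed in their direction. Of the alveolar type 1 markers 3 of 4 were called lower. The list's mean was 14.14 to 14.28 in WT 2 to 5 and 12.96 to 13.47 in SCC. WT 1 had no value for Aqp5, so its mean of 13.53 is of fewer genes and not comparable. The marker not called lower, Aqp5, differed by 0.64 in the other direction (adjusted p = 0.0233) without reaching 2-fold. Alveolar type 2 markers had 0 of 4 called (16.29 to 16.40 against 15.68 to 16.21), but Sftpa1 (-0.74, adjusted p = 0.000123) and Lamp3 (-0.81, adjusted p = 0.000643) passed the adjusted p downward with no overlap, and Sftpc lay at the top value of the normalized scale in all WT lungs and in SCC 1 and SCC 2, which caps its difference. Of the club cell markers 2 of 3 were called lower (17.50 to 18.10 against 15.54 to 17.72). Neutrophil markers had 3 of 4 called higher, at 10.79 to 11.64 in WT and 10.68 to 13.27 in SCC. Macrophage markers, at 12.44 to 13.00 and 12.40 to 13.52, split: Cd68 was called higher (1.95), Csf1r (-0.50, adjusted p = 0.00517) and Marco (-0.75, adjusted p = 0.0199) passed the adjusted p in the other direction without reaching 2-fold, and Adgre1 differed by 0.75 (adjusted p = 0.0621). SCC 2 was the lowest tumour in both leukocyte lists, as it was for Mmp12 and Ctsk.

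The genes whose pattern over the 10 arrays was nearest to that of Eln, by root mean square difference of centred log2 levels among 15507 genes compared, were Rab27a (0.21), Uck2 (0.22) and Liph (0.22). For Lox they were Pdhb (0.24), Hes1 (0.24) and Srsf5 (0.26). None of these 6 is a gene of the elastic fibre lists.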

How the data were processed

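RNA from 5 WT lungs and 5 SCC had been hybridised to single-colour Agilent mouse arrays. Scans had been read with Agilent Feature Extraction (version 12 in the submitters' processing notes), on an array design that the file headers tie to mm9. Each deposited scanner file gives a processed intensity per spot (linear scale, background already subtracted by the authors), the raw spot and background intensity, and quality flags. The authors also deposited a table of log2 values after quantile normalization, which correlated with the same values recomputed here (r of at least 0.9999 on every array) and was used to choose probes and as an alternative. Groups and replicate numbers came from the sample titles. All value columns mapped to a sample.

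Controls and spots flagged as outliers were dropped, repeat spots of a probe were averaged, and log2 processed intensity of 41174 probes was quantile-normalized (R 4.3.3, limma 3.58.1). Of these, 28215 probes (68.5%) had a gene symbol. A probe was tested if well above background on at least 4 of 5 arrays of a group (30374 probes). limma's moderated test was fitted on all 10 arrays, with Benjamini-Hochberg adjustment over all tested probes, in place of the one-way analysis of variance of the authors' methods, and 6954 probes were called. The fit was tested on simulated data: of 200 probes with a log2 change of 2 among 30374, 155 were recovered, with 5 false calls. Single members also had an exact permutation test. No spot was saturated. The number of arrays limits the precision.

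Named genes were the 10 members, up to 4 genes called in each direction with the largest difference in each list, genes with a defining role in elastic fibres whatever their value, and the 3 genes nearest to Eln and to Lox. Slpi, Prtn3, Ctsg and Elane were named in addition, to show what the elastolysis list pools. Members, lists and tests were chosen with earlier results of these data known. Replicate numbers did not pair the samples. The alternatives were other scaling, background correction, filters, slide and replicate blocks, array weights, the other probe of a gene, the deposited log2 values, the methods' t-test and leaving out arrays.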

Additional observations from a re-analysis of the deposited data

Results flagged for a closer look

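In each group of 5 arrays, the gap between the highest or lowest array and its nearest neighbour was compared with the group's whole range, and a gap above 0.71 of the range was taken as far from the others. Of 108 groups checked, 16 had such a gap, and chance gives about 1 in 20. None of the 10 members had one in either group. SCC 5 had 90.2% of its probes well above background against 71.1% to 73.8% on the other SCC arrays (gap 0.859 of the range).

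SCC 2 stood apart in 8 of the 16. It was lower than the other tumours for Mmp12 (7.33, gap 0.880), Ctsk (11.88, gap 0.847) and Itgav (10.74, gap 0.759). It was higher for Postn (13.27, gap 0.749). Among marker lists it was lower for squamous epithelium (11.91, gap 0.875), neutrophils (10.68, gap 0.941) and macrophages (12.40, gap 0.714), and higher for endothelium (11.82, gap 0.761).

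The other 7 were single arrays. P4ha3 was high in WT 2 (2.93, gap 0.919) and low in SCC 5 (2.62, gap 0.728). Colgalt2 was high in WT 1 (10.09, gap 0.726), and Loxl3 was low in WT 5 (6.57, gap 0.763). The smooth muscle list was low in WT 4 (11.80, gap 0.892), and the cartilage list was high in SCC 5 (8.32, gap 0.794). The alveolar type 1 list had a gap in WT 1 (13.53, gap 0.817) that comes with a missing value and is no low level. Its mean there left out Aqp5, which was 15.94 to 16.19 on the other WT arrays. For Hopx, Ager and Pdpn, WT 1 lay within the range of the other WT arrays.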

How the results depend on the processing

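The main setting called 6954 probes and, of the members, 2 higher (Loxl4 among them) and 2 lower. The normexp background correction called 4021 probes and 1 member higher (Eln) and 1 lower (Mfap4). Testing only probes above background on all 10 arrays left the same 1 and 1, since Fbln5 and Loxl4 were not tested. With slide as a fixed block, where each difference is the contrast within slide 2 with WT 5 as its only WT array, 2988 probes, 1 member higher (Eln) and 1 lower (Fbln5) were called, and of the lists assembly had 5 lower, crosslinking 0 higher and 3 lower, and elastolysis 3 higher and 1 lower. Fitted on slide 2 alone, limma called 0 probes and 0 members in either direction (1 WT array against 3 SCC arrays, with the lone WT array assumed to vary like the others); at an unadjusted p below 0.05 it was 5835 probes and 2 members (Eln and Fbln5). Adjusted p alone, with no fold requirement, gave 14878 probes. The t-test that the methods name for comparing 2 groups was also run. At an unadjusted p below 0.01 and 2-fold, thresholds that the methods text does not give, it called 1 member higher (Loxl4 was lost). After Benjamini-Hochberg adjustment it called 2. Leaving out 1 array at a time gave 6385 to 8135 probes and the same 4 members each time. Signs turned for 3 members that were not called: Fbn1 without SCC replicate 2 (-0.00092, adjusted p = 0.996; range over single arrays left out -0.00092 to 0.14), Lox with array quality weights (-0.11) and Loxl2 on its other probe (-0.31). The cause of these changes was not tested. Scaling to the 75th percentile moved the median difference of all probes from -0.09 to 0.03 and the share of higher among called probes from 43.3% to 53.2%, and called the same 4 members. Replicate numbers did not pair the samples (correlations of same-numbered arrays from -0.10 to 0.01, and no array matched its own number best). With the number as a replicate block 6571 probes and the same 4 members were called, and the adjusted p of Loxl1 was 0.0926. Low signal over background limits Fbln5 and Loxl4.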
